A study of Mus musculus with 24 samples.

Results

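Iron and metal handling genes of the mouse liver were followed as a set of 10 named genes: Hamp, Hamp2, Slc40a1, Trf, Tfrc, Fth1, Ftl1, Mt1, Mt2 and Cp. The set was chosen by name and not by a ranking of measured values, though earlier results of these data were known. All 10 genes were found among the 21755 genes of the p16-3MR table by their Ensembl identifiers. The wild-type table lists 12643 labels from which 9 lower-case letters are missing, and a gene was used there only where its label could come from 1 mouse symbol. By that rule 5 of the 10 genes were read in wild-type livers: Hamp, Slc40a1, Trf, Tfrc and Fth1. The labels of Hamp2, Ftl1, Mt1, Mt2 and Cp fit 3, 4, 13, 4 and 21 symbols, and these genes were not read there.

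The liver secretes hepcidin, the hormone encoded by Hamp, which binds the iron exporter ferroportin (Slc40a1) on enterocytes and macrophages and has it degraded, so that less iron enters the blood. Transferrin (Trf) carries iron in plasma, the transferrin receptor (Tfrc) takes it into cells, and ferritin, built from heavy (Fth1) and light (Ftl1) chains, stores it. Ceruloplasmin (Cp) is a copper-carrying plasma ferroxidase, and the metallothioneins Mt1 and Mt2 bind zinc and copper and are induced by metals, glucocorticoids and inflammation. In cells, iron regulatory proteins bind stem-loops called iron-responsive elements, which stabilises Tfrc transcripts and blocks translation of ferritin and ferroportin when iron is low.

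The samples were 24 livers, 1 per mouse, with 3 mice in each of 8 groups. The 12 p16-3MR mice carry a transgene in which the p16 promoter, within a bacterial artificial chromosome, drives a viral thymidine kinase, so that ganciclovir (GCV) can kill cells that express p16. Females (F) and males (M) of 16 to 18 months at the start were given GCV or vehicle (VEH, water at pH 11) by intraperitoneal injection on 5 days of each month, and livers were taken at about 28 months. The sample labels give the GCV dose as 150 mg/kg, and the methods of the study give a lower dose. The 12 wild-type mice, without the transgene, were given GCV or VEH in the same way from 6 months of age for 3 months. The p16-3MR libraries are batch 1 and the wild-type libraries are batch 2, so genotype, age and batch cannot be told apart, and each table was normalised and tested alone. The question was whether GCV, in mice whose p16-expressing cells it can remove and in mice where it cannot, came with a change in these transcripts, and whether the sexes differed.

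Levels are given as CPM, counts per 1e6 counts of a library after TMM scaling, a correction for differences in RNA composition. A p16-3MR library held between 5005760 and 7160172 counts, and a wild-type library between 3084517 and 5667904. Of the p16-3MR livers, GCV female 33 stood apart, with 64.0% of its counts on mitochondrially encoded genes against 12.3% to 22.4% in the other livers and a TMM factor of 0.259. GCV male 32 and VEH male 24 had the highest TMM factors, 1.80 and 1.64. The tests of the set and its spread in p16-3MR mice were therefore also computed without these 3 livers, while levels, lists and relations are given with all livers and the values of these livers beside them. A count of 3, taken as the lowest that can be read, corresponds to 0.293 to 2.32 CPM in p16-3MR livers, the highest value being that of liver 33, and to 0.516 to 0.943 CPM in wild-type livers. Cdkn2a, the gene of p16, had 0 to 7 counts per p16-3MR liver, too few to check the removal of these cells. The 6 hepatocyte markers were all detected in p16-3MR livers, with a summed level of 24436 CPM in liver 32, 38957 CPM in liver 24, 155584 CPM in liver 33 and 74975 to 113230 CPM in the others, and 2 of the 6 could be read in wild-type livers, at 3357 to 4779 CPM. In whole livers, fewer cells of a type and less RNA per cell cannot be told apart.

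In wild-type mice Hamp was higher in females than in males under both treatments, by 1.64-fold with VEH and by 1.86-fold with GCV, and this was the one difference in the set that passed the test over all genes of its table. In p16-3MR mice no gene of the set passed the test in any comparison, while levels of hepcidin and metallothionein genes differed widely between livers in some groups. The largest fitted difference between the sexes there was that of Hamp2, 51.1-fold higher in VEH females than in VEH males with an adjusted p of 0.965. The largest for GCV against VEH was that of Mt2 in males, 17.0-fold higher with GCV at an adjusted p of 1.0. Tfrc was the gene of the set with the smallest unadjusted p for GCV against VEH, in wild-type females, at 4.07-fold with an adjusted p of 0.195.

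**Figure D1:**
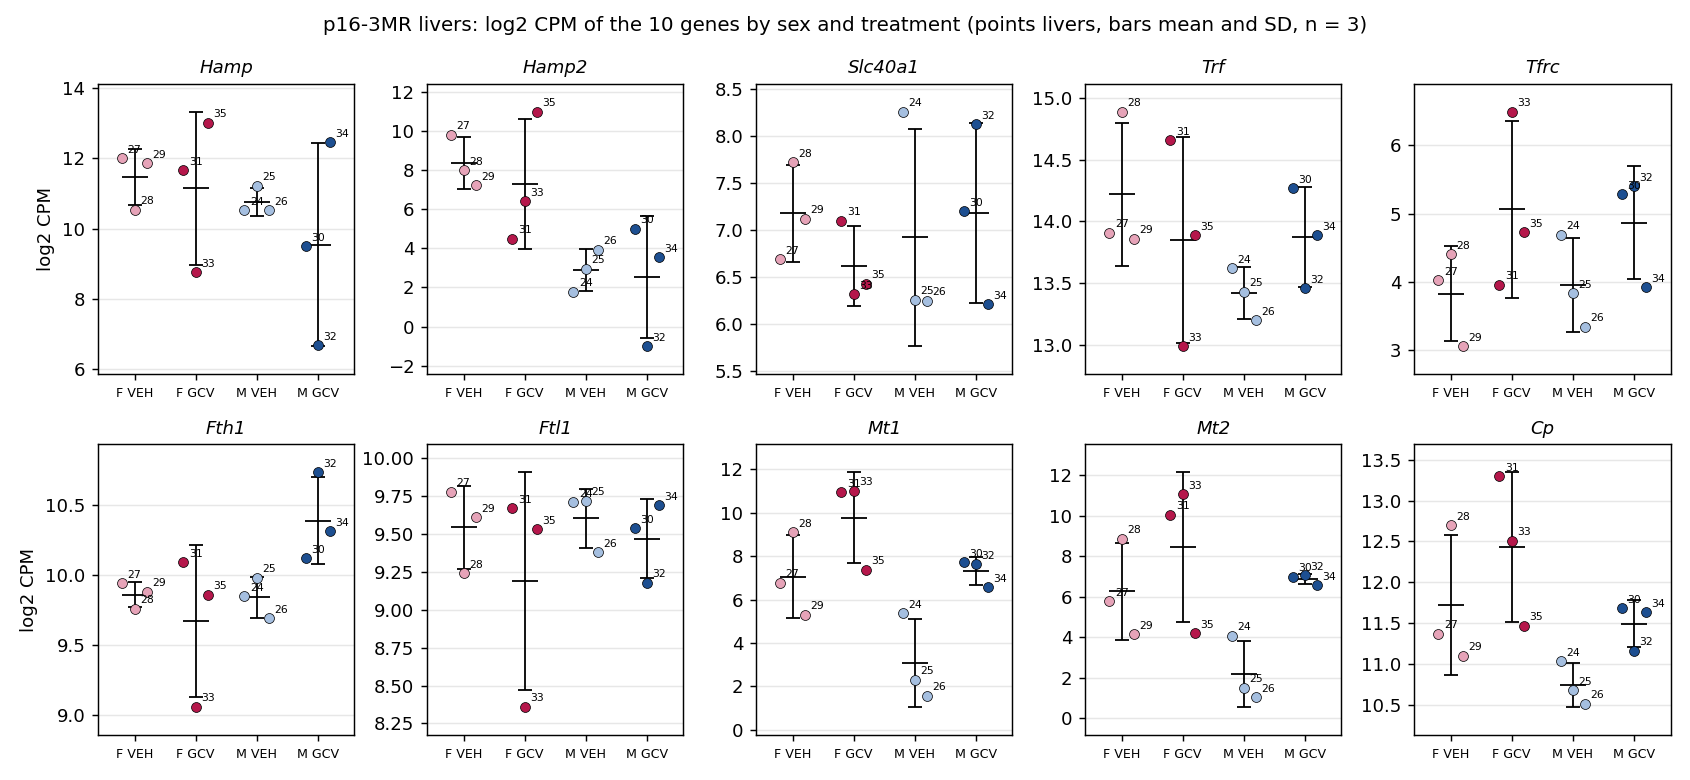
Log2 CPM (vertical axis, 1 panel per gene) of the 10 genes in p16-3MR livers, for VEH and GCV females and VEH and GCV males. Points are livers marked with their numbers, and bars give the mean and SD of 3 livers. Fth1 and Ftl1 lie within narrow ranges apart from liver 33, low in both, and liver 32, high in Fth1, while Hamp, Hamp2, Mt1 and Mt2 spread over several log2 units in some groups, GCV females among them, and less in others, such as Hamp in VEH males.

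Mice have a pair of hepcidin genes, and both lie on chromosome 7 of GRCm38 on the minus strand, Hamp (ENSMUSG00000050440) at chr7:30942368-30944032 and Hamp2 (ENSMUSG00000056978) at chr7:30922372-30924681. Hamp encodes the iron-regulating hormone, and Hamp2 encodes a related peptide whose role is less clear. The 250 bases before their start sites are shown because the genes are a near-identical pair whose levels were read side by side. The sequences are from RefSeq on GRCm38.p6, read 5′ to 3′ on the gene's strand, at chr7:30944030-30944279 and chr7:30924182-30924431. The Hamp2 window lies before the RefSeq start but inside the gene's span in GENCODE M21, which also lists a transcript that begins further upstream. Capitals mark the letters GGCGCC, the motif known from the hepcidin promoter as the element that answers to bone morphogenetic proteins, its relative GGCACC, and TTCNNNGAA, the motif bound by STAT factors:
Hamp: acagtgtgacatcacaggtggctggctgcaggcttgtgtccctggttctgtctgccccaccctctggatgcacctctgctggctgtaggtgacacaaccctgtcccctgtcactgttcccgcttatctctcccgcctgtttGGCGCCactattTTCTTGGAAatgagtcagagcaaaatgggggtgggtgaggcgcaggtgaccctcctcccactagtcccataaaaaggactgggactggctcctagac
Hamp2: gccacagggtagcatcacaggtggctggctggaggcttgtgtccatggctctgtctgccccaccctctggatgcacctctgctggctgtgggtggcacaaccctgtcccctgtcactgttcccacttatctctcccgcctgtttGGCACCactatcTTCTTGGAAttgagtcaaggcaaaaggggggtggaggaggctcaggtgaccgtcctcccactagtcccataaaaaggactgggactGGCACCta

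When aligned, the windows share 227 identical bases with 20 mismatches and 6 gap positions, which is 91.9% identity over aligned bases. Counting back from the base before the start site as -1, the Hamp window holds GGCGCC at -109 and TTCNNNGAA at -97. The Hamp2 window holds TTCNNNGAA at -94, no GGCGCC, and GGCACC at -106 and -8, a form that was searched for after it was seen there. Both strands were searched, and the motifs as marked do not overlap. Over 32851 windows of the same length before gene starts, 9.59% hold GGCGCC, 12.9% hold GGCACC and 7.02% hold TTCNNNGAA. A match of letters is a description of the sequence and no measure of binding.

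In p16-3MR livers Hamp stood at 3261, 434 and 8288 CPM in GCV females 31, 33 and 35, and at 4099, 1493 and 3728 CPM in VEH females 27, 28 and 29. In males it stood at 724, 103 and 5618 CPM in GCV livers 30, 32 and 34, and at 1474, 2393 and 1483 CPM in VEH livers 24, 25 and 26. Levels in both GCV groups enclosed or overlapped those of VEH livers, and the widest gap was within GCV males, where liver 34 was 54.5-fold above liver 32. Liver 32 also had the lowest summed hepatocyte markers of the p16-3MR livers, 24436 CPM, and the highest summed Kupffer cell markers, 3379 CPM, and the part of cell content in its Hamp level was not tested. The mean was 3994 ± 3978 CPM in GCV females, 3107 ± 1410 in VEH females, 2148 ± 3021 in GCV males and 1784 ± 528 in VEH males (SD, n = 3). GCV against VEH differed by 0.36 on the log2 scale in females (SE 1.16, adjusted p = 0.968) and by 0.27 in males (SE 1.16, adjusted p = 1.0). The group means of log2 CPM ran the other way than these fits. They were 11.15 with GCV and 11.47 with VEH in females and 9.55 and 10.76 in males. The female difference was -0.75 without GCV female 35, and the male difference was -1.28 in limma-voom. Females against males differed by 0.80 with VEH (SE 1.16) and by 0.89 with GCV (SE 1.17), with adjusted p-values of 1.0 and 0.816. Without livers 33, 32 and 24, GCV against VEH differed by 0.85 in females (SE 0.69, adjusted p = 0.75) and by 0.69 in males (SE 0.77, adjusted p = 0.854). These differences rest on single livers: females minus males with GCV came to -0.22 without GCV female 35 and to 3.27 without GCV male 34, and GCV minus VEH in males to -2.11 without liver 34.

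Wild-type livers were more alike. Hamp stood at 2012, 1926 and 2587 CPM in GCV females, at 1963, 2612 and 1852 CPM in VEH females, at 1193, 1518 and 806 CPM in GCV males, and at 1739, 1051 and 1134 CPM in VEH males. Every female liver lay above every male liver, with the lowest female at 1852 CPM and the highest male at 1739 CPM. The female excess was 0.71 on the log2 scale with VEH (SE 0.20, adjusted p = 0.0444) and 0.89 with GCV (SE 0.20, adjusted p = 0.0095), and it was seen in 6 of 6 livers of each sex. GCV against VEH differed by 0.02 in females (SE 0.20, adjusted p = 1.0) and fell by 0.16 in males (SE 0.20, adjusted p = 0.922), neither called. The call with VEH sat close to the threshold. It was lost in DESeq2 (0.70, adjusted p = 0.163), with edgeR's filter on low counts (0.71, adjusted p = 0.0738), and when any of 6 livers was left out in turn: GCV female 4 (adjusted p = 0.0556), GCV female 5 (0.0512), VEH female 5 (0.232), GCV male 1 (0.0507), VEH male 2 (0.215) or VEH male 3 (0.206). The call with GCV was lost without GCV female 6 (0.75, adjusted p = 0.068) or GCV male 3 (0.68, adjusted p = 0.0581), and was kept in DESeq2.

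Acute-phase transcripts, several of which share with Hamp a response to interleukin-6, were measured in the same wild-type livers. Of 12 acute-phase genes 5 could be read, of which 2 were called lower in females with VEH, against 3.82% of all labels called, and 1 with GCV, against 3.24%. Their summed level was 1089 to 1258 CPM in the 6 females. In males it was 5017, 796 and 2093 CPM in GCV livers 1, 2 and 3, and 6715, 894 and 944 CPM in VEH livers 1, 2 and 3, so that 3 males lay below every female and 3 above. Among males, VEH male 1, with the highest sum, also had the highest Hamp, while GCV male 2, with the lowest sum, had the second highest Hamp. Of the hepatocyte markers 2 could be read. Both were lower in VEH females at an unadjusted p under 0.05, against 15.2% of labels, and 1 with GCV, against 12.8%. The 2 stellate cell markers that could be read summed to 244 to 275 CPM in females and 178 to 231 CPM in males. TMM factors were 1.11 to 1.14 in females and 0.835 to 0.975 in males. The part of these transcripts, cell markers and factors in the Hamp difference was not tested.

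Hamp2 was read in p16-3MR livers only. It stood at 22.2, 84.2 and 2023 CPM in GCV females 31, 33 and 35, and at 898, 256 and 150 CPM in VEH females 27, 28 and 29. In males it stood at 31.7, 0.195 and 11.5 CPM in GCV livers 30, 32 and 34, the middle value resting on 2 counts, and at 3.15, 7.50 and 14.8 CPM in VEH livers 24, 25 and 26. Every VEH female lay above every VEH male, while GCV female 31 lay below GCV male 30. Females against males differed by 5.68 on the log2 scale with VEH (SE 1.72, unadjusted p = 0.00546, adjusted p = 0.965) and by 5.62 with GCV (SE 1.71, unadjusted p = 0.00565, adjusted p = 0.569). DESeq2 called both differences, at adjusted p-values of 0.00889 and 0.00981, and limma-voom called neither, at 0.145 and 0.439. The difference with VEH was 4.58 without VEH female 27 and 6.35 without VEH male 26, with an adjusted p of 1.0 in both. The difference with GCV was 1.86 without GCV female 35 (adjusted p = 0.616), 5.01 without GCV male 32 and 6.99 without GCV male 30, and 2.21 in limma-voom. The fitted difference of GCV against VEH was 0.71 in females (SE 1.41, adjusted p = 0.929) and 0.77 in males (SE 1.44, adjusted p = 1.0), and its direction was not stable. In females it was -3.05 without GCV female 35 and -1.55 in limma-voom, and in males -0.62 without GCV male 30. The group means of log2 CPM ran the other way than the fits, at 7.29 with GCV and 8.35 with VEH in females and at 2.52 and 2.89 in males.

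The 410-base transcript of Hamp and the 420-base transcript of Hamp2 in GENCODE M21 share 388 identical bases with 22 mismatches, 94.6% identity over aligned bases. Reads of 1 gene could therefore have been counted to the other, which was not measured, and the levels of both genes are uncertain to that extent. The share of each in the counts of a liver is given as a description. Of the counts on both genes, Hamp2 took 0.675%, 16.2% and 19.6% in GCV females 31, 33 and 35, and 18.0%, 14.6% and 3.86% in VEH females 27, 28 and 29. In males it took 4.19%, 0.189% and 0.205% in GCV livers 30, 32 and 34, and 0.213%, 0.312% and 0.991% in VEH livers 24, 25 and 26. In GCV male 34, with 29307 counts on the pair, the exact 95% binomial interval of this share was 0.156% to 0.263%, counting error only. The share thus lay under 1% in 5 of 6 males and above 3% in 5 of 6 females, cuts chosen after seeing the values. The sexes overlapped, with GCV male 30 above VEH female 29 and GCV female 31 below VEH male 26.

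Ferroportin, the exporter that hepcidin removes, was measured as Slc40a1 (ENSMUSG00000025993, chr1:45908068-45926523, minus strand). Its levels in p16-3MR livers were 137, 79.6 and 85.9 CPM in GCV females, 103, 211 and 139 CPM in VEH females, 147, 280 and 74.0 CPM in GCV males, and 307, 76.1 and 75.8 CPM in VEH males, in the order of liver numbers given above. VEH male 24 and GCV male 32 were the highest. VEH males 25 and 26 and GCV male 34 lay below every female liver, and GCV male 30 lay within the range of VEH females. No comparison was called, with fitted differences from -0.72 to 0.13 on the log2 scale. Females minus males with VEH came to -0.02 (SE 0.61) with all livers and to 1.0 without livers 33, 32 and 24 (SE 0.38, unadjusted p = 0.0185, adjusted p = 0.482). The summed level of 7 Kupffer cell markers, all detected, moved with it: it was 2004 CPM in liver 24 and 3379 CPM in liver 32, against 122 to 1054 CPM in the other 10 livers. In females it was 122 to 360 CPM with GCV and 332 to 1054 CPM with VEH. The median log2 difference of the 7 markers was -1.73 for GCV minus VEH in females, where 1 passed an unadjusted p of 0.05 against 7.37% of all genes. It was -2.80 for females minus males with GCV, where 6 passed, all lower in females, against 8.41%. Slc40a1 differed by -0.58 and -0.72 in these comparisons, the latter becoming -0.19 without liver 32 and -0.03 without livers 33, 32 and 24. Kupffer cells, the macrophages of the liver, are known for high ferroportin, and their part in these values was not tested.

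In wild-type livers Slc40a1 stood at 79.8, 84.9 and 69.1 CPM in GCV females, 85.8, 77.4 and 89.1 CPM in VEH females, 60.7, 74.5 and 52.5 CPM in GCV males, and 58.5, 103 and 104 CPM in VEH males. The GCV males overlapped with VEH males only through VEH male 1, the lowest of its group. GCV against VEH in males fell by 0.50 on the log2 scale (SE 0.18, unadjusted p = 0.00983, adjusted p = 0.889), and without VEH male 1 it fell by 0.72 with an adjusted p of 0.0237. Summed Kupffer markers, of which 4 of 7 could be read, were 105 to 166 CPM in GCV males and 113 to 164 CPM in VEH males.

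Transferrin receptor, ferritin and ferroportin transcripts carry iron-responsive elements, and these are shown because they set the genes of cell iron uptake apart from those of storage and export. A C, then 5 bases of any kind, then the loop letters CAGTGN, were searched for on the sense strand in the untranslated regions of GENCODE M21 transcripts on GRCm38. The sites in 5′ untranslated regions and 3 of the 5 in Tfrc are printed with flanking bases as 29 bases, 5′ to 3′, with the loop in capitals. Tfrc sites 3 and 4, which share bases, and a match in the 3′ untranslated region of Fth1 are not printed:
Fth1, 5′ untranslated region: gtttcctgcttcaaCAGTGCttgaacgga
Ftl1, 5′ untranslated region: gtgtcttgcttcaaCAGTGTttgaacgga
Slc40a1, 5′ untranslated region: tccaacttcagctaCAGTGTtagctaagt
Tfrc, 3′ untranslated region, site 1 of 5: ataattatcggaagCAGTGCcttccataa
Tfrc, 3′ untranslated region, site 2 of 5: cacattatcgggagCAGTGTcttccataa
Tfrc, 3′ untranslated region, site 5 of 5: gtaattatcgggaaCAGTGTttcccataa

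Among the 10 genes, the 5′ untranslated regions of Fth1, Ftl1 and Slc40a1 held 1 match each, and the 3′ untranslated region of Tfrc held 5 matches in 2458 bases. Fth1 held 1 further match in its 3′ untranslated region, and Hamp, Hamp2, Trf, Mt1, Mt2 and Cp held none. In the whole annotation 10.8% of 20831 genes hold such letters in a 5′ untranslated region and 35.6% of 20914 in a 3′ untranslated region, while 5 or more matches in the latter occur in 0.765% of genes. The letters alone are therefore common, and the folding of the sites was not computed.

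Tfrc (ENSMUSG00000022797, chr16:32608920-32632794) was the lowest of the set in wild-type livers and rested on few counts. In wild-type females it stood at 5.65, 7.77 and 12.6 CPM with GCV, on 25, 27 and 69 counts, and at 1.89, 2.43 and 2.12 CPM with VEH, on 11, 11 and 9 counts. In wild-type males it stood at 8.49, 4.51 and 8.55 CPM with GCV and at 8.52, 3.50 and 5.03 CPM with VEH. The 3 VEH females lay below all other wild-type livers, and the GCV females overlapped with both male groups. GCV against VEH in females differed by 2.03 on the log2 scale (SE 0.41, unadjusted p = 6.61e-05, adjusted p = 0.195), in males by 0.33 (SE 0.38, adjusted p = 0.914), and the difference between the sexes was 1.70 (SE 0.56, unadjusted p = 0.0064, adjusted p = 0.982). The female difference was called when only the 6 female livers were fitted (2.02, adjusted p = 0.00662) and when VEH male 1 was left out (2.03, adjusted p = 0.0434), and over all alternatives its adjusted p ran from 0.000283 to 0.767. Of the 6 erythroid markers 4 could be read, Hbb-bs and Slc4a1 not among them, and 3 of the 4 passed an unadjusted p of 0.05 in females, all higher with GCV, against 4.56% of labels. Their summed level was 1270 to 1878 CPM in GCV females and 768 to 1361 CPM in VEH females. In males 3 of the 4 also passed, all higher with GCV, against 5.06%. The part of blood RNA in the Tfrc difference was not tested. VEH females against VEH males fell by 1.38 (SE 0.42, adjusted p = 0.0806), and without VEH male 2 they fell by 1.63 (adjusted p = 0.0479).

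In p16-3MR livers Tfrc stood at 15.2, 89.6 and 26.2 CPM in GCV females 31, 33 and 35, at 16.0, 20.8 and 8.05 CPM in VEH females, at 38.6, 42.1 and 14.8 CPM in GCV males 30, 32 and 34, and at 25.6, 13.9 and 9.85 CPM in VEH males. Liver 33 was the highest, and GCV and VEH livers overlapped in both sexes. GCV against VEH differed by 1.51 on the log2 scale in females (SE 0.64, unadjusted p = 0.0329, adjusted p = 0.667) and by 0.95 in males (SE 0.62, adjusted p = 1.0). Without liver 33 the female difference was 0.41 (adjusted p = 0.89). The summed level of 6 erythroid markers, all detected, was 2348 CPM in liver 33 and 38.6 and 273 CPM in the other GCV females. It ran from 248 to 1183 CPM in VEH females, from 351 to 1630 CPM in GCV males and from 274 to 1358 CPM in VEH males. Developing red cells are known for high Tfrc, and the part of blood RNA in these values was not tested.

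Transferrin (Trf, ENSMUSG00000032554, chr9:103204001-103230444, minus strand), the plasma iron carrier made by hepatocytes, was the most abundant transcript of the set. In p16-3MR livers it averaged 16401 ± 8894 CPM in GCV females, 20215 ± 8835 in VEH females, 15412 ± 4234 in GCV males and 11026 ± 1591 in VEH males (SD, n = 3). The lowest liver was 33 at 8155 CPM and the highest was VEH female 28 at 30412 CPM, and no comparison was called. In wild-type livers the averages were 12102 ± 109 CPM in GCV females, 12066 ± 567 in VEH females, 10386 ± 789 in GCV males and 10614 ± 1117 in VEH males. GCV females lay above all GCV males, while VEH male 1, at 11902 CPM, overlapped with VEH females. The female excess was 0.18 on the log2 scale with VEH (SE 0.09, adjusted p = 0.312) and 0.22 with GCV (SE 0.09, adjusted p = 0.233). limma-voom called both, at adjusted p-values of 0.021 and 0.0408, and without VEH male 1 the difference with VEH was 0.28 (adjusted p = 0.046).

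The ferritin chains were the steadiest of the set. Fth1 (ENSMUSG00000024661, chr19:9980598-9985098) stood at 1093, 532 and 926 CPM in GCV females, 980, 869 and 943 CPM in VEH females, 1111, 1700 and 1271 CPM in GCV males, and 920, 1013 and 829 CPM in VEH males of the p16-3MR table. All GCV males lay above all VEH males, by a fitted 0.56 on the log2 scale (SE 0.48, adjusted p = 1.0), with liver 32 the highest. This difference was 0.33 without liver 32 and 0.30 in limma-voom. In females the levels overlapped, and GCV fell by 0.13 against VEH (SE 0.48, adjusted p = 0.979). In wild-type livers Fth1 ranged from 1755 to 2127 CPM over all 12 livers, and none of its comparisons was called, the smallest adjusted p being 0.469 for VEH females against VEH males. Ftl1 (ENSMUSG00000050708, chr7:45457944-45459884, minus strand) ranged from 328 CPM in liver 33 to 881 CPM in VEH female 27, and its fitted differences lay between -0.27 and -0.05. A copy of the light chain gene, Ftl1-ps1, was listed at 190 to 384 CPM, so that reads may have been split between the copies and Ftl1 levels are uncertain to that extent.

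The metallothioneins Mt1 (ENSMUSG00000031765, chr8:94179082-94180327) and Mt2 (ENSMUSG00000031762, chr8:94172664-94173568) are neighbours on chromosome 8 and were read in p16-3MR livers only. Mt1 stood at 1953, 2067 and 165 CPM in GCV females 31, 33 and 35, and at 109, 549 and 39.1 CPM in VEH females 27, 28 and 29. It stood at 211, 196 and 95.5 CPM in GCV males 30, 32 and 34, and at 41.2, 4.64 and 2.66 CPM in VEH males 24, 25 and 26. All GCV males lay above all VEH males, while GCV female 35 lay below VEH female 28.

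Mt2 followed the same order of groups. It stood at 1064, 2130 and 18.1 CPM in GCV females, at 55.0, 463 and 17.4 CPM in VEH females, at 127, 132 and 94.9 CPM in GCV males, and at 16.3, 2.50 and 1.72 CPM in VEH males. The lowest values, in VEH males 25 and 26, rested on 14 and 11 counts of Mt2 and on 26 and 17 counts of Mt1. GCV males were again all above VEH males, and GCV and VEH females overlapped. The summed level of 5 monocyte and neutrophil markers was 59.8, 212 and 12.2 CPM in GCV females. It was 8.58, 338 and 53.5 CPM in VEH females. In males it was 177, 465 and 12.7 CPM with GCV and 191, 13.2 and 7.19 CPM with VEH. Livers 33, 28, 32 and 24 were the highest of their groups in both the sum and Mt2. VEH females 27 and 29 stood in opposite order. The part of these cells in the metallothionein levels was not tested.

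GCV against VEH differed for Mt1 by 2.58 on the log2 scale in females (SE 1.16, unadjusted p = 0.0439, adjusted p = 0.667) and by 3.36 in males (SE 1.21, unadjusted p = 0.0149, adjusted p = 1.0). For Mt2 the differences were 2.58 in females (SE 1.35, adjusted p = 0.673) and 4.09 in males (SE 1.45, unadjusted p = 0.0139, adjusted p = 1.0). The difference between the sexes in GCV minus VEH was not called, at -0.78 for Mt1 (SE 1.56) and -1.50 for Mt2 (SE 1.82), females minus males. Without livers 33, 32 and 24 these were -3.25 (unadjusted p = 0.0374, adjusted p = 0.598) and -4.15 (unadjusted p = 0.0428, adjusted p = 0.624). With VEH, females exceeded males by 3.84 for Mt1 (SE 1.23, unadjusted p = 0.00786) and by 4.68 for Mt2 (SE 1.49, unadjusted p = 0.00738), both with an adjusted p of 1.0. With GCV the excess was 3.06 for Mt1 (SE 1.19, adjusted p = 0.569) and 3.18 for Mt2 (SE 1.38, adjusted p = 0.576). That of Mt2 was 2.16 without liver 33 and 1.43 in limma-voom, which gave 2.24 for Mt1. Mt1 in males was called by limma-voom (5.24, adjusted p = 0.0403). Leaving out VEH male 24, the highest of its group, raised the male difference to 5.54 for Mt1 and 5.82 for Mt2, and leaving out VEH female 28 raised the female difference to 4.16 for Mt1 and 4.81 for Mt2. The female difference of Mt2 was 1.52 without liver 33. The VEH sex difference of Mt1 fell to 2.18 without VEH female 28, rose to 5.98 without VEH male 24 and was called when livers 33, 32 and 24 were left out together (5.99, adjusted p = 0.0385). That of Mt2 was 2.37 without VEH female 28, 6.38 without VEH male 24, and was called by DESeq2 (4.62, adjusted p = 0.0436).

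Ceruloplasmin (Cp, ENSMUSG00000003617, chr3:19957054-20009145) stood at 10095, 5837 and 2829 CPM in GCV females 31, 33 and 35, and at 2649, 6673 and 2194 CPM in VEH females 27, 28 and 29. In males it stood at 3279, 2283 and 3165 CPM with GCV and at 2088, 1640 and 1459 CPM with VEH. VEH males were the lowest group, below all GCV males and below all VEH females. GCV against VEH differed by 0.70 on the log2 scale in females (SE 0.70, adjusted p = 0.795) and by 0.75 in males (SE 0.70, adjusted p = 1.0), and VEH females exceeded VEH males by 1.15 (SE 0.71, adjusted p = 1.0). The female difference was 0.17 without GCV female 31 and 1.30 without VEH female 28, and the VEH sex difference was 0.49 without VEH female 28.

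Cp, like Hamp and the metallothioneins, is known as a gene of the acute-phase response, so the summed level of 12 acute-phase genes, all detected, was set beside it. The sum was 92814, 12254 and 16211 CPM in GCV females 31, 33 and 35, and 17169, 46870 and 17631 CPM in VEH females 27, 28 and 29. In males it was 29708, 7769 and 41050 CPM in GCV livers 30, 32 and 34, and 8759, 14836 and 16897 CPM in VEH livers 24, 25 and 26. Livers 31 and 28 were highest within their groups in both the sum and Cp. In males this was not so, as VEH male 24 had the lowest sum but the highest Cp, Mt1 and Mt2 of its group, and GCV male 34 had the highest sum while Cp was highest in liver 30. Liver 33 had high Mt1, Mt2 and Cp beside a low sum. The part of the acute-phase response in these levels was not tested.

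**Figure D2:**
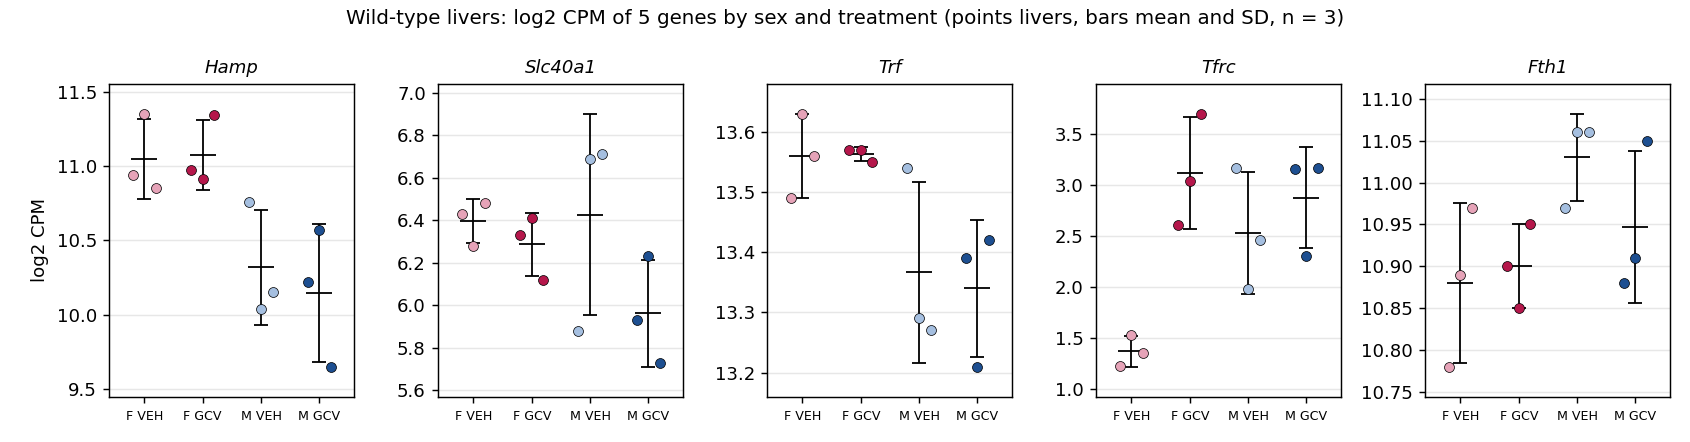
Log2 CPM (vertical axis, 1 panel per gene) of the 5 genes read in wild-type livers, with points for livers and bars for the mean and SD of 3 livers. Hamp is higher in all 6 female livers than in all 6 male livers, and Tfrc is lowest in the 3 VEH females.

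The spread between livers of a group set these genes apart from each other. Within groups of p16-3MR livers the pooled SD of log2 CPM was 2.44 for Hamp2, 2.35 for Mt2, 1.86 for Hamp and 1.77 for Mt1, against a median of 0.55 over 9373 genes with a mean of at least 5 CPM. These SDs exceeded those of 99.2%, 99.1%, 97.5% and 96.9% of these genes. Without livers 33, 32 and 24 the SD was 2.28 for Hamp2, 2.40 for Mt2, 1.17 for Hamp and 1.71 for Mt1, against a median of 0.33, and exceeded that of 99.3%, 99.4%, 96.2% and 98.8% of these genes. For Tfrc, Slc40a1, Cp and Trf the SD was 0.91, 0.82, 0.66 and 0.56, and for Ftl1 and Fth1 it was 0.42 and 0.33. Without livers 33, 32 and 24 these were 0.68, 0.50, 0.80 and 0.46, and 0.22 and 0.14. The SD of Cp exceeded that of 61.4% of genes with all livers and of 90.6% without these 3. In wild-type livers the SD was 0.48 for Tfrc, 0.35 for Hamp, 0.28 for Slc40a1, 0.10 for Trf and 0.07 for Fth1, against a median of 0.23 over 7292 labels. The order of the 5 genes thus differed in part between the tables, with Tfrc, at few counts, the most variable in wild-type livers and Hamp in p16-3MR livers.

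The counts of genes of the set are read beside the counts over whole tables. For GCV against VEH in p16-3MR females, 0 of 10 genes passed an adjusted p of 0.05 in edgeR, as did 0% of all genes, and the smallest adjusted p of any gene was 0.646. At an unadjusted p under 0.05, 2 of 10 genes passed, Tfrc and Mt1, both higher with GCV, against 7.37% of all genes, and 0 of 10 genes had groups without overlap, against 13.3%. DESeq2 called 86 genes and limma-voom 7 in this comparison, none of them in the set. In p16-3MR males 0 of 10 passed, with 0% of all genes. At an unadjusted p under 0.05, 2 of 10 passed, Mt1 and Mt2, against 1.91%, and groups did not overlap for 4 of 10, Mt1, Mt2, Cp and Fth1, all higher with GCV, against 6.4%. DESeq2 called 5 genes there, none of them in the set, and limma-voom called 145, of which Mt1 was 1. The difference between the sexes in p16-3MR mice was called for 0 of 10 genes and 0% of all, and passed an unadjusted p of 0.05 for 0 of 10 against 3.78%. DESeq2 called 3 genes there and limma-voom 1, none in the set.

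Females against males in p16-3MR mice gave 0 of 10 calls with VEH, against 0.12% of all genes, and 0 of 10 with GCV, against 0.0965%. At an unadjusted p under 0.05, Hamp2, Mt1 and Mt2 passed in both, all higher in females, against 2.74% of all genes with VEH and 8.41% with GCV. Groups did not overlap with VEH for 4 of 10 genes, Hamp2, Mt2, Cp and Trf, all higher in females, against 9.34%, and with GCV for 1 of 10, Fth1, which was lower in females, against 8.25%. DESeq2 called 2 of the 10 genes with VEH (Hamp2 and Mt2) among 99 genes in all, and 1 with GCV (Hamp2) among 131. limma-voom called 0 of the 10 in either, among 154 and 77 genes in all. The median log2 difference over the set was 0.53 for GCV against VEH in females, 0.66 in males, 0.84 for females against males with VEH and 0.66 with GCV, while the medians over all genes lay between -0.05 and 0.04. Mt1 and Mt2 are neighbours that move together, and the comparisons share livers, so these counts are not independent of each other.

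In wild-type mice GCV against VEH was called for 0 of 5 genes in females, against 0.00791% of all labels, and for 0 of 5 in males, against 0%. At an unadjusted p under 0.05, Tfrc passed in females, against 4.56%, and Slc40a1 in males, against 5.06%. Groups did not overlap for 1 of 5 in females, Tfrc, against 10%, and for 0 of 5 in males, against 8.85%. The difference between the sexes was called for 0 of 5, against 0.00791%, with Tfrc at an unadjusted p under 0.05, against 4.45%. Neither limma-voom nor DESeq2 made a call among the 5 genes in these 3 comparisons, but DESeq2 gave no adjusted p for Tfrc in females, where its log2 difference was 2.04. Females against males was called for 1 of 5 genes with VEH, against 3.82% of labels, and for 1 of 5 with GCV, against 3.24%, Hamp in both. At an unadjusted p under 0.05, 3 of 5 passed with VEH, against 15.2%, and 2 of 5 with GCV, against 12.8%. Groups did not overlap for 3 of 5 with VEH, against 18.5%, and for 2 of 5 with GCV, against 18.4%.

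**Figure D3:**
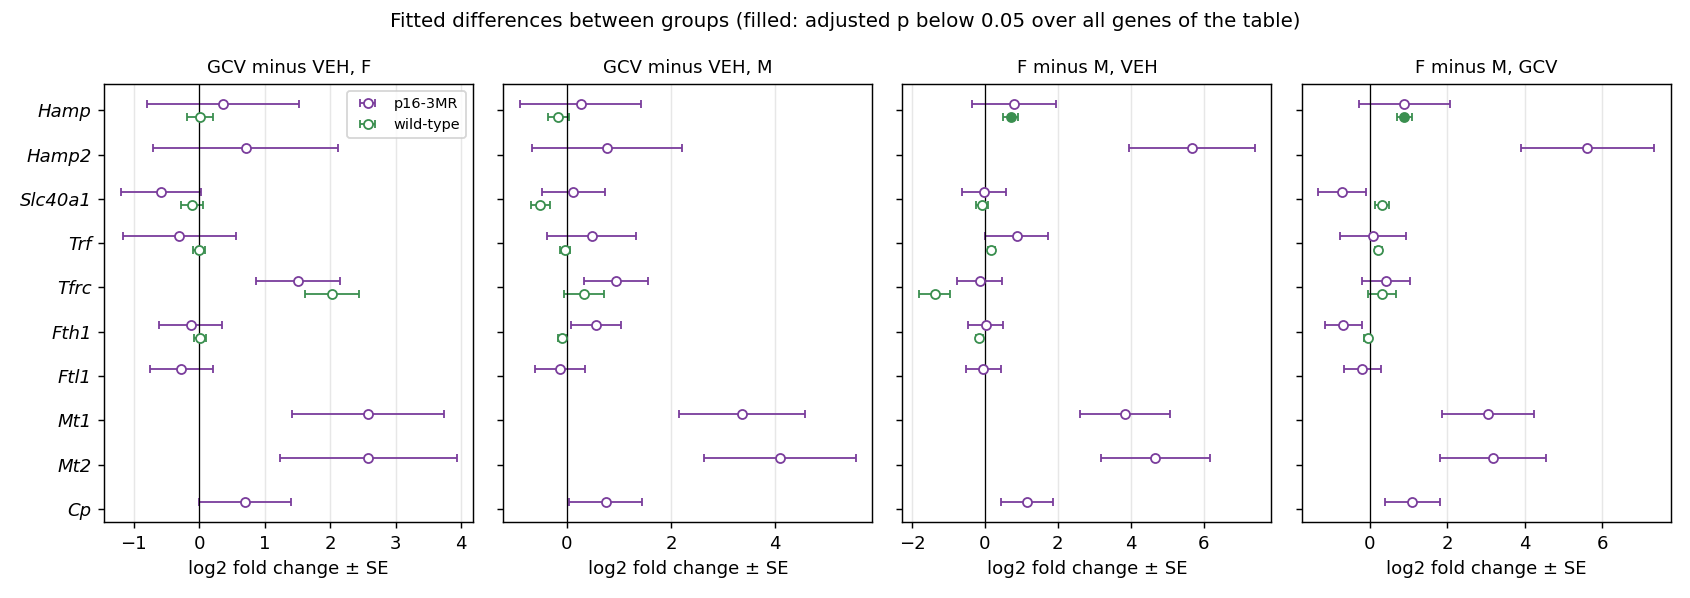
Fitted log2 fold changes with their SE (horizontal axis) of each gene for 4 comparisons, with p16-3MR and wild-type tables in different colours and filled points where the adjusted p was below 0.05. The only filled points are wild-type Hamp in females against males, and the error bars of a gene are wider in p16-3MR than in wild-type livers, least so for Tfrc.

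Across the 12 p16-3MR livers Mt1 and Mt2 moved together, with a Pearson r of 0.964 and a Spearman rho of 0.958 on log2 CPM (permutation p = 1e-05 for each, the smallest that 100000 permutations give, and 5e-05 for r after adjustment over 5 relations computed). The r was 0.945 in females and 0.988 in males, and 0.937 without VEH males 25 and 26, the livers farthest from the median. Hamp and Hamp2 gave r = 0.608 (permutation p = 0.0353, adjusted 0.0589) and rho = 0.503 (permutation p = 0.0979), and r was 0.0638 without livers 35 and 32, so that this relation rests on those livers. Fth1 and Ftl1 gave r = 0.532 (permutation p = 0.118, adjusted 0.148) and rho = 0.315 (permutation p = 0.317). Their r was 0.971 in females and -0.486 in males, and 0.541 without livers 33 and 32. Tfrc and Hamp gave r = -0.640 (permutation p = 0.0265, adjusted 0.0589) and rho = -0.531 (permutation p = 0.0793), and r was -0.321 without livers 33 and 32. Their r was -0.7 in females and -0.737 in males. In wild-type livers Tfrc and Hamp gave r = -0.169 (permutation p = 0.598, adjusted 0.598) and rho = -0.168 (permutation p = 0.605), and r was -0.402 without the GCV female 6 and VEH female 4 livers. There r was 0.309 in females and 0.000779 in males. The livers of a table come from 4 groups, so these relations mix differences between groups with those within them.

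**Figure D4:**
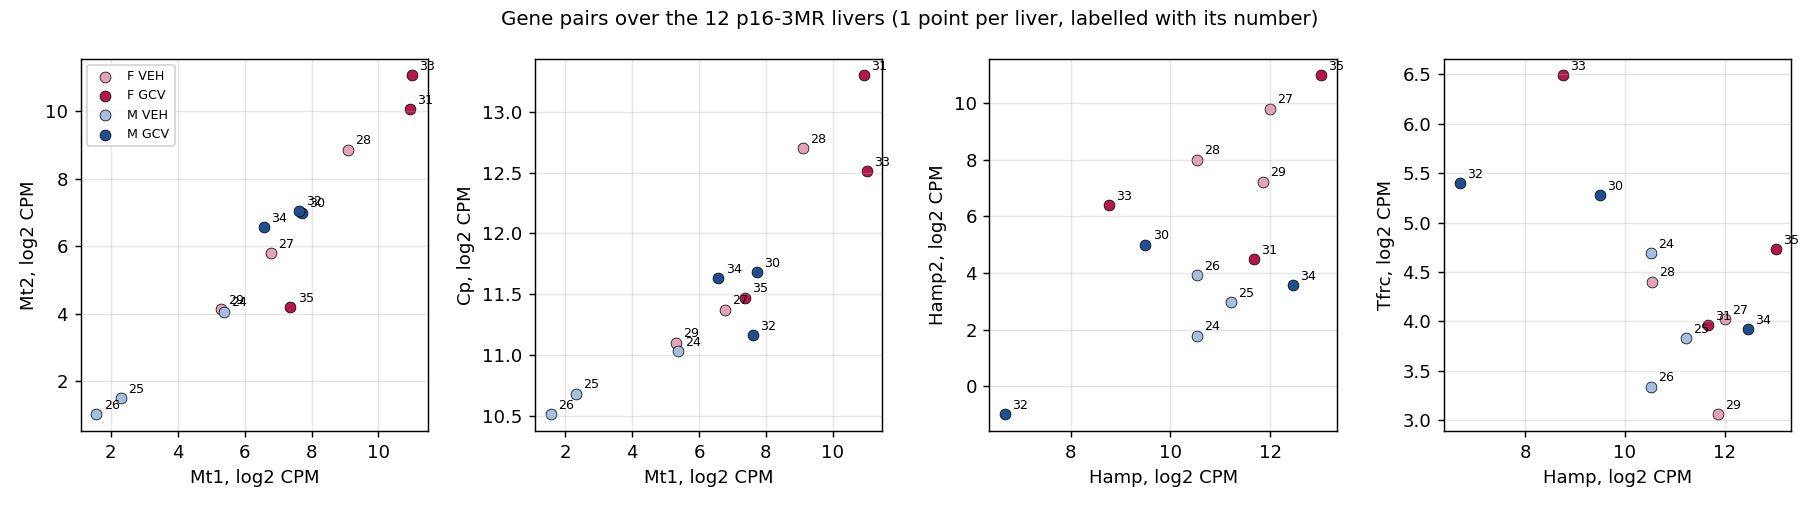
Log2 CPM of 4 gene pairs over the 12 p16-3MR livers, 1 point per liver with its number and group colours. Mt1 and Mt2 fall along a line, Cp rises with Mt1, and the spread of Hamp against Hamp2 and Tfrc is set largely by livers 32, 33 and 35.

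Genes whose levels ran most alike were named by the highest Pearson r over the 12 livers among genes of at least 5 CPM on average, as a description. In p16-3MR livers, out of 9364 named genes, Hamp was most like Agmat (r = 0.966), Fmo1 (0.951) and Hgd (0.938), Hamp2 was most like Cyp2c69 (0.950), Ldlrad3 (0.928) and Usp15 (0.917), and Tfrc was most like Smtn (0.919), Tbc1d10b (0.898) and Ap1g2 (0.889). Mt1 was most like 2 genes of the set, Mt2 (0.964) and Cp (0.902), and then Slc1a4 (0.899). In wild-type livers, out of 5594 genes, Hamp was most like Scaf8 (0.949), Cavin2 (0.932) and Lgals9 (0.923), and Tfrc was most like Car14 (0.864), Tat (0.860) and Ethe1 (0.836).

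Genes around the set were counted in lists of hepcidin regulation (24 of 25 genes measured in p16-3MR livers, 12 in wild-type livers), cell iron uptake, storage and sensing (17 of 18, and 11), haem handling (11 of 11, and 6), zinc (13 of 14, and 13), copper (9 of 9, and 5) and the acute phase (12 of 12, and 5). In p16-3MR livers none of these genes was called in any of the 5 comparisons. The list medians for GCV against VEH lay between -0.36 and 0.32 on the log2 scale in females, and in males between -0.17 and 0.75 apart from the acute phase at 1.55. Of the acute-phase genes 3 of 12 passed an unadjusted p of 0.05 in males, all higher with GCV, against 1.91% of all genes. In the same comparison 3 of 24 hepcidin regulators passed, 1 of them higher with GCV. In females 2 of 11 haem genes passed, 1 of them higher with GCV, against 7.37% of all genes.

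In wild-type livers GCV against VEH was called for no gene of these lists in either sex. Of the hepcidin regulators 1 of 12 was called between the sexes, against 3.24% of labels with GCV, Bmp2, the growth factor from sinusoidal endothelium that raises Hamp transcription. Bmp2 stood at 23.5 to 25.6 CPM in GCV females and 11.9 to 15.1 CPM in GCV males, a difference of 0.85 (SE 0.19, adjusted p = 0.00902), and at 21 to 23.7 CPM in VEH females and 13.1 to 19.7 CPM in VEH males, a difference of 0.48 (SE 0.18, adjusted p = 0.182). The values of Bmp2 and of Hamp did not overlap between the sexes, with females above males for both. Groups did not overlap for 18.5% of labels with VEH and 18.4% with GCV. For Bmp2 only the GCV comparison passed the test. The part of Bmp2 in the Hamp difference was not tested. At an unadjusted p under 0.05, 3 of the 12 regulators passed with GCV, against 12.8% of labels, and only Bmp2 was higher in females. Bmp2 is also 1 of the 6 markers listed for sinusoidal endothelium, of which 3 could be read. Their summed level, Bmp2 included, was 68.8 to 93.3 CPM in females and 57.7 to 70.5 CPM in males. At an unadjusted p under 0.05, 2 of the 3 passed with VEH, against 15.2% of labels, and 1 with GCV, against 12.8%, all higher in females. The part of endothelial cells in the Bmp2 difference was not tested. In p16-3MR livers Bmp2 differed by 0.07 with VEH (SE 0.34) and fell by 0.09 with GCV (SE 0.35) between females and males.

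Of the haem genes 1 of 6 was called, against 3.82% of labels with VEH, Blvra, which encodes biliverdin reductase, the enzyme that forms bilirubin. It was higher in VEH females than in VEH males by 0.92 (SE 0.21, adjusted p = 0.0143), at 14.6 to 19.6 CPM against 6.78 to 11.7 CPM, and differed by 0.10 with GCV (adjusted p = 0.897). Alas2, the haem synthesis enzyme of red cell precursors, listed as an erythroid marker, was called in both treatments. It stood at 11.2 to 22.1 CPM in the 6 wild-type females and 105.0 to 117 CPM in the 6 males, and females minus males came to -3.0 on the log2 scale with VEH (SE 0.15, adjusted p = 2.45e-12) and to -2.49 with GCV (SE 0.14, adjusted p = 4.52e-11). The summed level of the 4 of 6 erythroid markers that could be read was 768 to 1878 CPM in these females and 1494 to 3766 CPM in males, and the part of blood in the Alas2 difference was not tested. Of the acute-phase genes Saa2 and Saa3 were called lower in VEH females than in VEH males, by fits of -6.10 (adjusted p = 0.0195) and -3.32 (adjusted p = 0.0229), and Saa2 also with GCV, at -5.78 (adjusted p = 0.0274). Saa2 ran from 18.3 to 3350 CPM in GCV males and from 39.3 to 4292 CPM in VEH males, with male 1 the highest of each group. No zinc, copper or iron uptake gene was called. Between the sexes 3.82% of all labels were called with VEH and 3.24% with GCV.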

How the data were processed

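Liver RNA was measured in 24 mice, with 3 mice per genotype, sex and treatment. Libraries were made with Smart-3SEQ, which reads the 3′ ends of transcripts, and per the submitters' processing notes reads were handled with FastQC 0.11.9, Trim Galore 0.6.10 and Salmon 1.10.3, with mm10 named as the build. The authors summed the estimates to genes, left out genes with fewer than 3 reads, and deposited expected counts (estimated counts) per gene as whole numbers, not scaled for library size. How strand was handled is not given in the sources used here, and Cp overlaps Hps3 on the other strand, listed at 2.35 to 16.4 CPM.

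Symbols and coordinates came from GENCODE M21 on GRCm38, which named 21698 of 21755 p16-3MR rows, and 10496 of 12643 wild-type labels fit 1 symbol. Counts were tested with edgeR 4.0.16 in R 4.3.3 (TMM, the 12 livers of a table fitted together with 1 mean for each group, quasi-likelihood test, p-values adjusted by Benjamini-Hochberg across every gene tested, calls at an adjusted p under 0.05). CPM uses TMM-scaled library sizes, and log2 CPM a prior count of 2. Intervals and the floor of 3 counts cover counting error only. The fits were tested on simulated data.

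The alternatives were DESeq2 1.42.0, limma 3.58.1 (voom with quality weights), DESeq2's size factors, no mitochondrially encoded genes, edgeR's filter on low counts, only the 6 livers compared, an adjusted p under 0.1, each liver left out in turn, a replicate block, a prior count of 0.5 and, chosen after seeing the data, livers 33, 32 and 24 left out together. The genes of the set, the lists around it and the tests were chosen with earlier results of these data known. Named genes are the 10 of the set, list genes called in any comparison, and the 3 genes most alike to Hamp, Hamp2, Mt1 and Tfrc. Permutations used numpy 2.4.6, and exact intervals scipy 1.17.1. Of the set 8 of 10 genes had a promoter in the RefSeq table, and those of both hepcidin genes are printed.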

Additional observations from a re-analysis of the deposited data

How the results depend on the processing

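Of 1475 alternatives to the log2 differences of the set 1387 kept their direction, among them all 354 for differences with an unadjusted p under 0.05. These counts include the threshold of an adjusted p under 0.1, which leaves a difference as it is. They also include fits without a liver outside the groups compared, which move a difference little. The counts are therefore no measure of how stable a direction is. In p16-3MR mice, where no gene of the set was called, the count became 1 for GCV against VEH in males under limma-voom (Mt1), among 145 genes called in the whole table. For females against males with VEH it became 2 in DESeq2 (Hamp2 and Mt2), 1 with only the 6 livers compared (Hamp2) and 1 without livers 33, 32 and 24 (Mt1), while whole-table calls went from 26 to 99, 59 and 120. With GCV it became 1 in DESeq2 (Hamp2), with whole-table calls going from 21 to 131. DESeq2 gave no adjusted p for Tfrc in wild-type females, GCV against VEH. In wild-type mice the count for GCV against VEH in females became 1 with only the 6 livers compared and 1 with a replicate block (Tfrc), among 44 and 106 labels called. It ran from 0 to 1 when each liver was left out, as it did in males, with 0 to 12 labels called in females and 0 to 46 in males. For wild-type females against males with VEH the count was 0 in DESeq2, 0 with edgeR's filter, 2 under limma-voom, 2 at an adjusted p under 0.1, and 0 to 2 when each liver was left out. The labels called there were 483 in the reported test and 568, 470, 624, 708 and 319 to 716 under these alternatives. With GCV it was 2 under limma-voom and 0 to 1 when each liver was left out, among 479 and 289 to 547 labels, against 410 in the reported test. The causes were not tested.

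The direction of differences with an unadjusted p of 0.05 or more turned in 66 refits without 1 liver and in 22 others. When each liver was left out, log2 differences with a turn had these ranges. GCV minus VEH in p16-3MR females ran from -0.75 to 0.84 (Hamp), -3.05 to 1.81 (Hamp2), -0.79 to 0.06 (Trf) and -0.35 to 0.06 (Fth1). GCV minus VEH in p16-3MR males ran from -2.11 to 0.78 (Hamp), -0.62 to 1.45 (Hamp2) and -0.53 to 1.17 (Slc40a1). The difference between the sexes in p16-3MR mice ran from -1.02 to 2.47 (Hamp), -3.81 to 1.32 (Hamp2), -0.53 to 0.98 (Tfrc), -0.37 to 0.12 (Ftl1), -3.02 to 0.83 (Mt1), -3.30 to 0.76 (Mt2) and -0.58 to 0.58 (Cp). Females minus males with VEH in p16-3MR mice ran from -0.34 to 1.00 (Slc40a1), -0.46 to 0.34 (Tfrc), -0.05 to 0.09 (Fth1) and -0.18 to 0.10 (Ftl1). Females minus males with GCV in p16-3MR mice ran from -0.22 to 3.27 (Hamp), -0.40 to 0.38 (Trf), -0.66 to 0.84 (Tfrc) and -0.43 to 0.09 (Ftl1). GCV minus VEH in wild-type females ran from -0.12 to 0.19 (Hamp), -0.03 to 0.04 (Trf) and -0.03 to 0.07 (Fth1). GCV minus VEH in wild-type males ran from -0.39 to 0.10 (Hamp) and -0.08 to 0.06 (Trf). The difference between the sexes in wild-type mice ran from -0.08 to 0.42 (Hamp) and -0.05 to 0.08 (Trf). Females minus males with VEH in wild-type mice ran from -0.30 to 0.05 (Slc40a1). Females minus males with GCV in wild-type mice ran from -0.08 to 0.55 (Tfrc) and -0.08 to 0.01 (Fth1). In limma-voom the turned values in p16-3MR mice were 0.02 (Fth1) and -1.55 (Hamp2) for GCV minus VEH in females, -1.28 (Hamp) in males, -0.88 (Tfrc) between the sexes, 0.07 (Tfrc), -0.01 (Fth1) and 0.73 (Slc40a1) for females minus males with VEH, and -0.81 (Tfrc) and -0.02 (Trf) with GCV. In wild-type mice limma-voom gave, for Trf, 0.03 for GCV minus VEH in males and -0.02 for the difference between the sexes. Fitting only the 6 livers compared gave 0.00 for Trf in females. DESeq2 and its size factors in edgeR each gave -0.01 for Fth1 in females minus males with VEH in p16-3MR mice. Without livers 33, 32 and 24 the turned values were 0.07 (Fth1) for GCV minus VEH in females, 0.05 (Ftl1) in males, -0.75 (Tfrc) and 0.25 (Hamp2) for the difference between the sexes, 0.34 (Tfrc), 1.0 (Slc40a1) and 0.02 (Ftl1) for females minus males with VEH, and -0.41 (Tfrc) with GCV. The causes were not tested.

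The replicate numbers of wild-type livers were shared by GCV and VEH mice. Deviations of same-numbered livers correlated at -0.019, -0.026 and 0.027 in females and 0.110, 0.158 and -0.018 in males. Those of differently numbered livers ran from -0.0372 to 0.0518 in females and from -0.1945 to 0.0829 in males. Whether same-numbered mice were paired cannot be told from these values. With the replicate block the calls over all wild-type labels went from 1 to 106 in females, from 0 to 68 in males and from 1 to 79 for the difference between the sexes. Over whole p16-3MR tables limma-voom gave 154 calls for females against males with VEH and 77 with GCV. A prior count of 0.5 moved 1 of 60 group means by more than their SD, Tfrc in wild-type VEH females. Reading wild-type labels with 1 other unexpressed match gave no value, since each unread label fits 3 or more symbols. Depth limits Tfrc in wild-type mice and Hamp2, Mt1 and Mt2 in VEH males, which rest on as few as 9 counts per liver or, in GCV male 32, on 2.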

Other observations

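Wild-type rows that could hold a gene of the set but whose labels fit several symbols were left out of all comparisons. For 3 of them the values of the sexes did not overlap. Over all labels, females and males did not overlap for 18.5% with VEH and 18.4% with GCV. The share for all 6 females against all 6 males was not computed. The row labelled Hap2, which could be Habp2, Hamp2 or Hapln2, stood at 897, 813 and 1282 CPM in GCV females and 819, 1717 and 1287 CPM in VEH females, and at 75.8, 63.0 and 155 CPM in GCV males and 79.6, 55.3 and 67.7 CPM in VEH males. In p16-3MR livers Habp2 reached at most 143 CPM, Hamp2 reached 2023 CPM and Hapln2 was not listed. The row labelled Mt2, which could be Mgst2, Mmgt2, Mt2 or Mtg2, stood at 139, 149 and 123 CPM in GCV females and 103, 377 and 77.3 CPM in VEH females, and at 40.9, 18.1 and 24.1 CPM in GCV males and 55.4, 14.4 and 26.3 CPM in VEH males. In p16-3MR livers Mgst2, Mmgt2 and Mtg2 reached at most 0.536, 5.59 and 7.30 CPM and Mt2 reached 2130 CPM. The row labelled Mt1, which fits 13 symbols, went the other way, at 2574 to 3117 CPM in the 6 females and 3502 to 4061 CPM in the 6 males. Of its symbols, Mgst1 reached 5553 CPM, Mt1 2067 CPM and Mtss1 208.5 CPM in p16-3MR livers. The others reached less or were not listed. Which gene these rows hold was not settled, and no test was made on them.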
